A study of Mus musculus with 11 samples.

Results

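The granins are a family of acidic proteins stored with insulin in the secretory granules of the beta cell, and 6 of them were described here: Chga, Chgb, Scg2, Scg3, Scg5 and Vgf. They were found as the rows of the gene tables whose Ensembl identifier maps to one of these symbols, and make up 6 of the 55487 genes measured. RNA-seq was performed on 11 libraries of beta cells that were FACS-sorted from the pancreatic islets of C57BL/6 mice, which the methods of the study give as C57BL/6JRj males 12 weeks old. PD-L1high beta cells (4 libraries) and PD-L1low beta cells (3 libraries, numbered as replicates 2 to 4) came from islets kept for 20 h in medium with IFNγ at 50 pg/mL and were separated by the amount of PD-L1 on their surface, and control beta cells (4 libraries) came from islets cultured without the cytokine. The gate for beta cells took those with EpCam and CD71 on their surface and little CD24, and all of them spent the culture inside whole islets. The comparisons ask whether beta cells that display PD-L1 after a low dose of IFNγ differ in granule cargo from beta cells of the same culture that do not, and from untreated ones. PD-L1high and PD-L1low are thus gates drawn on treated islets, not separate treatments.

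Dense-core granules form at the trans-Golgi network, where granins aggregate with prohormones in an acidic, calcium-rich lumen and help to sort them into the regulated secretory pathway. Chromogranins and secretogranins are also cut by the prohormone convertases into peptides that are released together with the hormone. In the beta cell they share the granule with proinsulin, and Chga and its fragments are known as antigens of diabetogenic T cells in the NOD mouse. The gamma-activated sequence (GAS) is found in the promoters of many genes that IFNγ induces, whereas several granin promoters are known to respond to cAMP through the cAMP response element (CRE).

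Short stretches of granin promoters are shown because they hold the letters of these elements. RefSeq promoters of build GRCm38.p6, from 250 bases before to 50 bases after the gene start, were matched by symbol for 5 of the 6 granins, Vgf being the one not matched. The palindromic CRE (TGACGTCA) was found in 2 of these 5 promoters, Chgb and Scg2, against 1.79% of 32851 promoters of the same length. Its 5-letter part (TGACG, searched on both strands and contained in the full element) was found in 5 of 5, against 20.8% of all promoters. In the first 4 windows, given 5′ to 3′ on the strand of the gene, capitals mark the CRE or its part. The letters start 72 bases before the RefSeq gene start in Chgb, 68 in Scg2, 44 in Chga and 30 in Scg3. GENCODE M21 places the start of Chgb 364 bases and that of Scg2 94 bases further upstream, so that by this annotation both windows lie within the gene.
Chgb, chr2:132781559-132781588, plus strand: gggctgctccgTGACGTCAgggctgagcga
Scg2, chr1:79440076-79440105, minus strand: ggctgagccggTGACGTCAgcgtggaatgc
Chga, chr12:102554885-102554914, plus strand: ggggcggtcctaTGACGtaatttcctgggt
Scg3, chr9:75684069-75684098, minus strand: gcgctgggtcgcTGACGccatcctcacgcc
The letters of the GAS (TTCNNNGAA) were found in 2 of the 5 promoters, Scg2 and Scg5, against 8.30% of all promoters. Scg5 holds them at 2 places that abut each other, and capitals mark the fixed letters of both in its window.
Scg5, chr2:113829123-113829152, minus strand: aatgccTTCcagGAATTCtggGAAggcctc
The core of the interferon-stimulated response element was found in 0 of the 5 granin promoters, against 3.44% of all promoters. A match of letters does not show that a factor binds there, and no match says only that these letters are not in this window.

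The libraries held between 10422018 and 15810769 counts each, and 16252 genes passed the filter on low counts, all 6 granins among them. As a check of the labels, Cd274, which encodes PD-L1, rose 10.7-fold in PD-L1high cells and 1.92-fold in PD-L1low cells, each against control cells (edgeR adjusted p = 2.66e-09 and 0.0394). Markers of beta cells (8 genes) summed to between 62129 and 90412 CPM (counts scaled to the size of the library) in PD-L1high, 71934 to 77314 in PD-L1low and 60910 to 93673 in control libraries. Of the 8, 0 were called in any of the 3 comparisons by edgeR at an adjusted p under 0.05 or by DESeq2 or limma-voom. At an unadjusted p under 0.05 in edgeR there was 1 in PD-L1high versus control (7.65% of all genes). There were 0 in PD-L1low versus control (2.1%) and 0 in PD-L1high versus PD-L1low (8.52%). All 8 were below 0 in PD-L1low versus control, with a median log2 fold change of -0.18. The median there was 0.00037 over all genes tested and 0.0095 over genes of at least 100 CPM. The share of mitochondrial counts was highest in control replicate 1, at 13.3%, followed by PD-L1high replicate 4 at 11.9%, and lowest at 5.54%.

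All granins but Vgf ranked among the 180 most abundant genes of every library. In deposited TPM, a share of transcripts that corrects for their length and so allows genes to be set against each other, the 6 together took 0.551%, 0.695%, 0.585% and 0.495% of all transcripts in PD-L1high libraries, 0.617%, 0.614% and 0.479% in PD-L1low libraries, and 0.297%, 0.683%, 0.658% and 0.637% in control libraries. The groups overlapped, and control replicate 1 lay below every other library. In that same library the insulin genes Ins1 and Ins2 took 7.82% of transcripts, against 12.4% to 21.4% in the other 10.

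Chga, chromogranin A (ENSMUSG00000021194, chr12:102554969-102565028, plus strand, GRCm38), had the highest level of the 6, with a median of 2919 TPM over the 11 libraries and a range from 1299 to 3585. Scg2, secretogranin II, the precursor of secretoneurin (ENSMUSG00000050711, chr1:79434669-79440120, minus strand), followed with 1489 TPM (848 to 1847). Scg3, secretogranin III, which tethers chromogranin A to the granule membrane (ENSMUSG00000032181, chr9:75643189-75684056, minus strand), had 741 TPM (329 to 833). Scg3 was the only granin overlapped by another gene of the annotation, Gm37871, which lies on the opposite strand and had 2 to 30 counts a library. Chga was above Scg2, and Scg2 above Scg3, in 11 of 11 libraries.

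Chgb, chromogranin B (ENSMUSG00000027350, chr2:132781278-132795079, plus strand), had a median of 426 TPM (196 to 588) and Scg5, which encodes the 7B2 chaperone of the convertase PC2 (ENSMUSG00000023236, chr2:113776362-113829121, minus strand), had 403 TPM (296 to 464). These neighbours could not be ordered beyond their spread: Chgb was above Scg5 in 8 libraries and below it in 3, PD-L1low replicate 4 and control replicates 1 and 4. Vgf, a nerve growth factor-inducible granule protein that is cut into several bioactive peptides (ENSMUSG00000037428, chr5:137026392-137033351, plus strand), had far less, with a median of 14.8 TPM (3.51 to 25.8), and was the lowest of the 6 in every library.

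**Figure D1:**
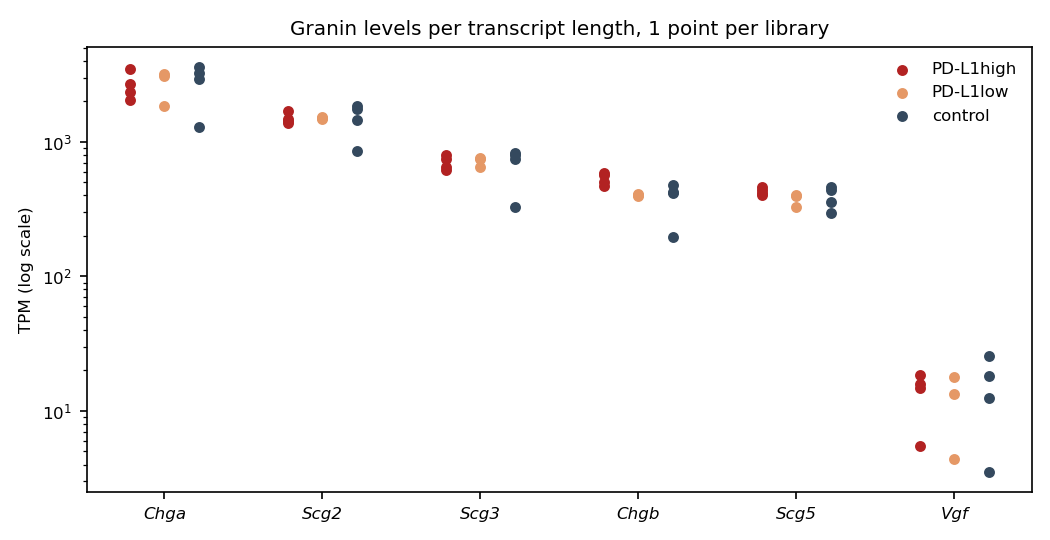
Deposited TPM of each granin on a log axis, 1 point per library, with PD-L1high, PD-L1low and control libraries side by side. Scg2 (848 TPM and above) and Scg3 (833 TPM and below) occupy separate ranges, Chgb and Scg5 overlap, and Vgf lies below 26 TPM in all 11 libraries.

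On the CPM scale, Chgb was the 1 granin whose PD-L1high libraries stood apart from the others. It had 1288, 1328, 1346 and 1385 CPM in PD-L1high libraries 1 to 4, against 1019, 983 and 1269 CPM in PD-L1low libraries 2 to 4 and 669, 1229, 1022 and 1072 CPM in control libraries 1 to 4. Every PD-L1high library was above every PD-L1low and every control library in CPM, whereas PD-L1low and control libraries overlapped. The separation from control libraries depended on the scale. In deposited TPM, Chgb was lower in PD-L1high replicate 4 (472) than in control replicate 2 (476). Its PD-L1high libraries (472 to 588 TPM) stayed above its PD-L1low libraries (395 to 411 TPM). Scg5 also had separate TPM ranges in PD-L1high (403 to 464) and PD-L1low libraries (326 to 400). The share of all genes with separate TPM ranges is not given here. The means were 1337 ± 40.0 CPM in PD-L1high (SD, n = 4), 1091 ± 156 in PD-L1low (n = 3) and 998 ± 236 in control cells (n = 4). The coefficient of variation was 2.99% in PD-L1high, 14.3% in PD-L1low and 23.7% in control libraries.

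The fitted difference of Chgb was 0.45 ± 0.13 on the log2 scale (SE) in PD-L1high versus control cells, a fold of 1.37 with a 95% interval from 1.12 to 1.67. This did not pass the test across all genes (edgeR adjusted p = 0.231, unadjusted p = 0.00406). It was 0.40 ± 0.15 in PD-L1high versus PD-L1low cells, a fold of 1.32 from 1.06 to 1.65, which did not pass either (edgeR adjusted p = 0.472). In PD-L1low versus control cells the fold was 1.04, from 0.835 to 1.29 (edgeR adjusted p = 1.00).

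Within a replicate number, Chgb was higher in PD-L1high than in control cells in 4 of 4 pairs, by 0.11 to 0.95 on the log2 scale, and higher in PD-L1high than in PD-L1low cells in 3 of 3, by 0.13 to 0.45. The largest of these differences belonged to replicate 1, whose control library was the low one. Without control replicate 1 the difference from control cells was 0.29 (edgeR adjusted p = 0.785), and without PD-L1high replicate 1 it was also 0.29 (edgeR adjusted p = 0.796). These fits are not separate checks. In each, the replicate term absorbs the library left in replicate 1, and the difference from control cells rests on replicates 2 to 4. Without control replicate 2 it was 0.59 and passed the test (edgeR adjusted p = 0.0470), and with DESeq2 in place of edgeR it passed as well (adjusted p = 0.0227), but not with limma-voom (adjusted p = 0.0865).

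The share of Chgb among the granins does not depend on how libraries are scaled to each other. Chgb made up 10.7%, 8.14%, 8.57% and 9.52% of granin TPM in PD-L1high libraries 1 to 4, against 6.66%, 6.57% and 8.25% in PD-L1low libraries 2 to 4 and 6.59%, 6.96%, 6.36% and 6.68% in control libraries 1 to 4. All 4 PD-L1high libraries lay above all 4 control libraries, and PD-L1low replicate 4 lay above PD-L1high replicate 2. Control replicate 1, low in every granin but Scg5 on the CPM scale, was within the range of the other control libraries in this share. A share also moves with the other granins, of which Chga made up 38.4% (PD-L1low replicate 4) to 54.5% (control replicate 3). How often the shares of other genes separate groups in this way was not tested.

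Genes of other islet cells also differed between these groups. The PP cell hormones Ppy and Pyy summed to 233 to 562 CPM in PD-L1high, 26.8 to 33.5 in PD-L1low and 150 to 382 in control libraries, and both were higher in PD-L1high than in PD-L1low cells and lower in PD-L1low than in control cells. Of these 2 genes, Ppy was also called higher in PD-L1high than in control cells, by 0.67 on the log2 scale (edgeR adjusted p = 0.00183). Alpha cell markers (6 of 8 tested) summed to 970 to 1988 CPM in PD-L1high, 707 to 835 in PD-L1low and 792 to 1875 in control libraries, with glucagon (Gcg) called higher in PD-L1high than in PD-L1low cells (log2 difference 2.37, edgeR adjusted p = 0.0163). Within this sum, Gcg averaged 882 CPM in PD-L1high, 209 in PD-L1low and 658 in control cells. Slc7a2 averaged 432, 417 and 452 CPM in the same order. Delta cell markers (2 of 5 tested) summed to 11.6 to 39.5 CPM in PD-L1high, 3.51 to 9.27 in PD-L1low and 6.82 to 33.4 in control libraries, with somatostatin (Sst) called higher in PD-L1high than in PD-L1low cells (log2 difference 2.42, edgeR adjusted p = 0.00136). In PD-L1low versus control cells, Gcg had a log2 difference of -1.80 and Sst of -1.64, neither called by edgeR (adjusted p = 0.241 and 0.154) and both called by DESeq2 and limma-voom. These other islet cells also express granins, and the part of such cells in the Chgb values was not tested. Markers of immune cells (at most 4.44 CPM), endothelial cells (0.786 CPM) and acinar cells (3.85 CPM) were near 0, whereas duct markers summed to 370 to 785 CPM in PD-L1high, 505 to 553 in PD-L1low and 401 to 545 in control libraries. The duct sum came mostly from Krt7 and Spp1, with Krt19 at 1.29 CPM or less, and its highest library was PD-L1high replicate 1. Of the defining immune, endothelial and acinar markers, Cd3e, Lyz2, Adgre1, Cdh5 and Prss2 had 0 counts in all libraries. In sorted populations, a change in the number of cells of a type cannot be told apart from a change in the RNA per cell.

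**Figure D2:**
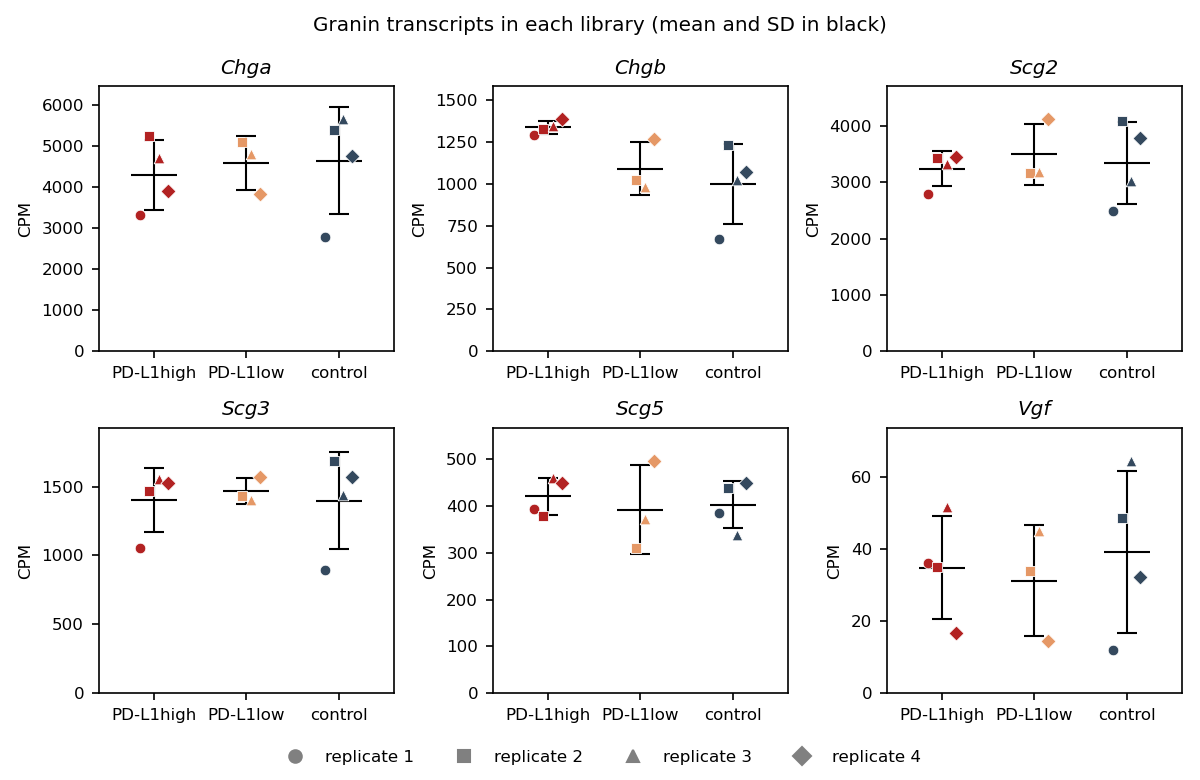
CPM of each granin in every library, with PD-L1high, PD-L1low and control groups from left to right, black bars for the mean and SD (n = 4, 3 and 4) and 1 marker shape per replicate number, on axes that start at 0. The 4 PD-L1high libraries of Chgb (1288 to 1385 CPM) lie above the other 7, while the groups of the other granins overlap.

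The groups overlapped for Chga. It had 3317, 5249, 4717 and 3896 CPM in PD-L1high libraries 1 to 4, against 5091, 4812 and 3837 CPM in PD-L1low libraries 2 to 4 and 2782, 5398, 5657 and 4754 CPM in control libraries 1 to 4. The lowest values of PD-L1high and control cells both came from replicate 1. Within a replicate number, PD-L1high cells were below control cells in 3 of 4 pairs, and PD-L1low cells below control cells in 3 of 3, by 0.084 to 0.31 on the log2 scale. The fold was 0.943 (95% interval 0.788 to 1.13) in PD-L1high versus control, 0.898 (0.736 to 1.10) in PD-L1low versus control and 1.05 (0.857 to 1.29) in PD-L1high versus PD-L1low cells.

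Scg2 likewise overlapped between groups, with 2789, 3424, 3317 and 3449 CPM in PD-L1high libraries 1 to 4, against 3173, 3190 and 4120 CPM in PD-L1low libraries 2 to 4 and 2492, 4088, 3027 and 3788 CPM in control libraries 1 to 4. Its fold was 0.982 (95% interval 0.818 to 1.18) in PD-L1high versus control, 0.983 (0.802 to 1.20) in PD-L1low versus control and 0.999 (0.814 to 1.23) in PD-L1high versus PD-L1low cells. Scg2 had the smallest fitted difference of the 6 between PD-L1high and PD-L1low cells.

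Scg3 had 1055, 1465, 1553 and 1523 CPM in PD-L1high libraries 1 to 4, against 1433, 1399 and 1572 CPM in PD-L1low libraries 2 to 4 and 891, 1684, 1439 and 1572 CPM in control libraries 1 to 4. As for Chga, both replicate 1 libraries were the lowest, and the groups overlapped. Its fold was 1.02 (95% interval 0.867 to 1.20) in PD-L1high versus control, 0.962 (0.805 to 1.15) in PD-L1low versus control and 1.06 (0.884 to 1.27) in PD-L1high versus PD-L1low cells.

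Scg5 had 392, 378, 459 and 449 CPM in PD-L1high libraries 1 to 4, against 309, 370 and 495 CPM in PD-L1low libraries 2 to 4 and 385, 438, 338 and 448 CPM in control libraries 1 to 4. On the CPM scale both its lowest and its highest library were PD-L1low ones, and replicate 1 was not low. In deposited TPM the lowest library of Scg5 was control replicate 1 (296) and the highest was PD-L1high replicate 1 (464). Its fold was 1.04 (95% interval 0.867 to 1.25) in PD-L1high versus control, 0.943 (0.766 to 1.16) in PD-L1low versus control and 1.11 (0.899 to 1.36) in PD-L1high versus PD-L1low cells. Over Chga, Scg2, Scg3 and Scg5, the 12 intervals of the 3 comparisons lay between 0.736-fold and 1.36-fold, and larger differences lie outside these intervals. The adjusted p of edgeR for these 4 genes and Vgf was at least 0.830 in every comparison.

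Vgf was the most variable granin. It had 36.1, 35.1, 51.7 and 16.8 CPM in PD-L1high libraries 1 to 4, against 33.9, 45.2 and 14.7 CPM in PD-L1low libraries 2 to 4 and 11.9, 48.6, 64.4 and 32.4 CPM in control libraries 1 to 4. Its highest library was 5.39 times its lowest, against 1.60 to 2.07 times for the other 5 granins. Within a replicate number PD-L1low cells were below control cells in 3 of 3 pairs, by 0.51 to 1.14 on the log2 scale, but the intervals of its fold were wide: 0.522 to 1.72 in PD-L1high versus control, 0.378 to 1.34 in PD-L1low versus control and 0.682 to 2.61 in PD-L1high versus PD-L1low cells. Differences within these intervals were not detectable for Vgf.

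In all, edgeR called 0 of the 6 granins at an adjusted p under 0.05 in PD-L1high versus control, where it called 0.991% of all genes tested, 0 in PD-L1low versus control (0.08%) and 0 in PD-L1high versus PD-L1low (0.732%). At an unadjusted p under 0.05 the counts were 1 in PD-L1high versus control (7.65% of all genes), 0 in PD-L1low versus control (2.1%) and 1 in PD-L1high versus PD-L1low (8.52%), the 1 gene being Chgb in each. DESeq2 called 1 granin in PD-L1high versus control and 0 in the other comparisons, and limma-voom called 0 in all 3. The counts over all genes called by these tools, for the granins and the lists below, are given in the closing section. Ranges of CPM did not overlap for 1 of 6 in PD-L1high versus control (4.29% of all genes), 0 in PD-L1low versus control (2.71%) and 1 of 6 in PD-L1high versus PD-L1low (8.01%). The median log2 fold change of the 6 was 8.8e-05 in PD-L1high versus control, -0.07 in PD-L1low versus control and 0.11 in PD-L1high versus PD-L1low, beside medians of -0.02, 0.00037 and -0.0042 over all genes tested. The comparisons share libraries and are not independent of each other.

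**Figure D3:**
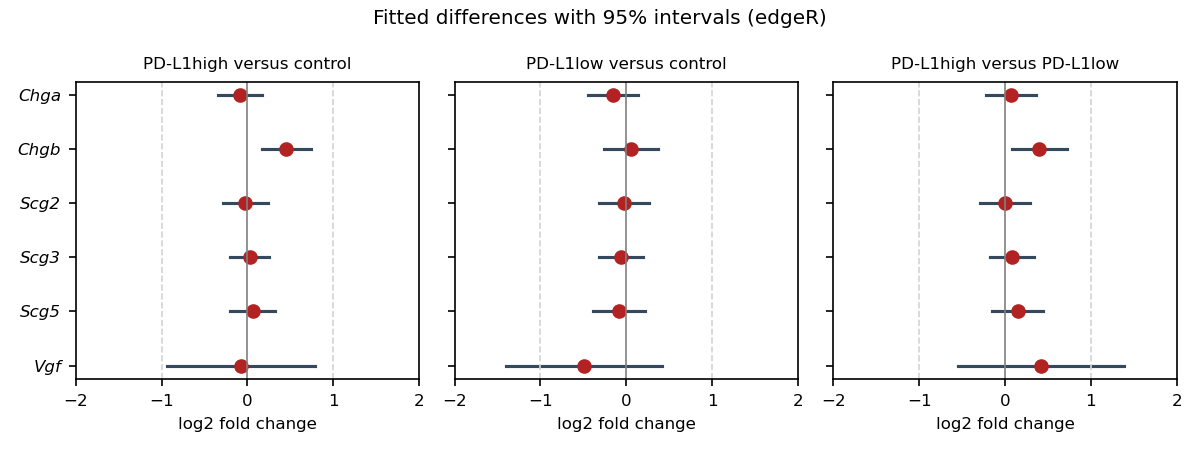
Fitted log2 fold change of each granin with its 95% interval from the edgeR model, for PD-L1high versus control, PD-L1low versus control and PD-L1high versus PD-L1low cells. The intervals of Chgb lie above 0 in the 2 comparisons of PD-L1high cells (1.12 to 1.67-fold and 1.06 to 1.65-fold), and every interval of the other 5 granins includes 0.

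Beside the groups, the model asked whether granins differed between the numbered replicates. Chga averaged 3050 CPM over the 2 libraries numbered 1, 5246 over the 3 numbered 2, 5062 over the 3 numbered 3 and 4162 over the 3 numbered 4. Scg3 averaged 973, 1527, 1464 and 1556 CPM in the same order of numbers. In both genes the 2 libraries of replicate 1 were below the other 9.

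The replicate term of the model did not pass for any granin after adjustment over all genes (edgeR adjusted p = 0.101 for Chga and 0.123 for Scg3, the smallest). At an unadjusted p under 0.05 it held for 4 of 6, namely Chga, Scg3, Scg2 and Vgf, against 13.7% of all genes, and at an adjusted p under 0.05 for 0.4% of all genes. Vgf followed another order, with 24.0, 39.2, 53.8 and 21.3 CPM on average in replicates 1 to 4, and replicate 4, the highest for Scg3 on average, held the lowest PD-L1high and PD-L1low libraries of Vgf. The methods call each n an independent biological sample, and whether a number was shared by animals, a batch or a day is not given in the sources used here.

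**Figure D4:**
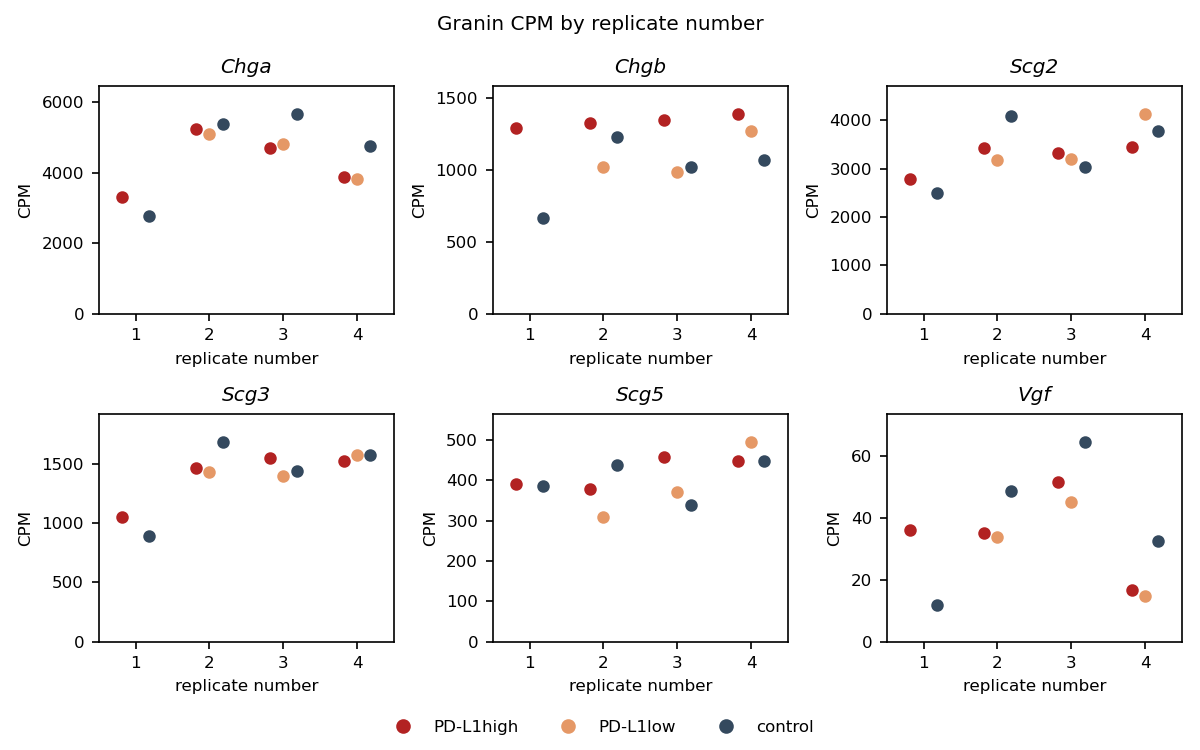
CPM of each granin against the replicate number, 1 point per library, coloured by group, on axes that start at 0. Chga and Scg3 are lowest in the 2 libraries of replicate 1 (means of 3050 and 973 CPM), Vgf is highest in replicate 3 (53.8 CPM), and replicate 1 has no PD-L1low library.

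Each granin had its own closest genes by the Pearson correlation of log2 CPM over the 11 libraries, among 8843 other genes with a mean of at least 10 CPM. For Chga these were Aldh18a1 (r = 0.957), Syndig1l (0.951) and 2310022B05Rik (0.948), and for Chgb they were Uprt (0.956), Bhlhb9 (0.942) and Itm2b (0.939). Scg2 was most like Sqor (0.969), Hsp90b1 (0.966) and Ero1l (0.949), the last 2 of which encode a chaperone and an oxidase of the endoplasmic reticulum. Scg3 was most like Tnfrsf21 (0.984), Ddc (0.962) and Pofut2 (0.961). The genes most like Scg5 were Ptgr2 (0.955), Ppfibp1 (0.955) and Rnase4 (0.948), and those most like Vgf were Uqcrc1 (0.952), Tmem214 (0.942) and Aff2 (0.937). These are descriptions over points that share replicate numbers and scaling, and no gene was named for more than 1 granin.

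The other genes of the granule, from lists of peptide cargo, processing enzymes, granule membrane, granule biogenesis and exocytosis, numbered 61, of which 58 were tested. EdgeR called 0 of the 58 in each comparison, and at an unadjusted p under 0.05 there were 1 (1.72%, against 7.65% of all genes) in PD-L1high versus control, 2 (3.45%, against 2.1%) in PD-L1low versus control and 3 (5.17%, against 8.52%) in PD-L1high versus PD-L1low. DESeq2 called 1 of the 58, Slc30a8, in PD-L1high versus control and 0 elsewhere, and limma-voom called 0 in all 3 comparisons. Their median log2 fold change was -0.01 in PD-L1high versus control, -0.07 in PD-L1low versus control and 0.03 in PD-L1high versus PD-L1low, with 42 of 58 below 0 in PD-L1low versus control.

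Among membrane proteins of the granule, Slc30a8, the zinc transporter ZnT8, had the smallest p in PD-L1high versus control. It averaged 590 ± 111 CPM in PD-L1high (SD, n = 4), 740 ± 61.6 in PD-L1low (n = 3) and 765 ± 49.9 in control cells (n = 4), a log2 difference of -0.39 from control cells that did not pass (edgeR adjusted p = 0.156). Its sign was opposite to that of Chgb. Ptprn, the granule membrane protein IA-2, had the smallest p of this list in PD-L1high versus PD-L1low, with a log2 difference of 0.38 (edgeR adjusted p = 0.464).

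Among the processing enzymes, Cpe, the carboxypeptidase that trims basic residues from cut prohormones, differed by 0.19 on the log2 scale in PD-L1high versus control (edgeR adjusted p = 0.783) and by 0.30 in PD-L1high versus PD-L1low (edgeR adjusted p = 0.641). All 6 processing enzymes and all 6 tested peptide cargo genes had a positive log2 difference in PD-L1high versus PD-L1low, with medians of 0.13 and 0.24, beside 0.056 over the 1901 genes of at least 100 CPM and -0.0042 over all genes, but 0 of the 12 had an unadjusted p under 0.05 in edgeR and 0 were called by DESeq2 or limma-voom. Against control cells, the medians of enzymes and cargo genes were 0.03 and 0.03 in PD-L1high, and -0.09 and -0.19 in PD-L1low cells. Npy had the smallest p of the cargo genes in PD-L1high versus PD-L1low, with a log2 difference of 2.62 (edgeR adjusted p = 0.642). Its level was low, with means of 0.396 and 0.0522 CPM in these groups. The insulin gene Ins1 differed by 0.25 in PD-L1high versus PD-L1low (edgeR adjusted p = 0.692). Ccdc186, a factor of granule maturation, differed by 0.19 (edgeR adjusted p = 0.743). Pcsk2, which encodes the convertase PC2 that Scg5 assists, differed by -0.26 in PD-L1low versus control (edgeR adjusted p = 1.00). In the exocytosis list, Stx1a, a plasma membrane SNARE protein, differed by 1.02 in PD-L1high versus PD-L1low at a low level, 4.43 ± 1.00 CPM (SD, n = 4) against 2.36 ± 1.31 CPM (n = 3), and did not pass (edgeR adjusted p = 0.586).

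Genes induced by calcium, cAMP or cell handling were set beside the granins because of the CRE letters in the granin promoters. Of 14 listed, 12 were tested and edgeR called 0 in each comparison, with 4 of 12 at an unadjusted p under 0.05 in PD-L1high versus control (7.65% of all genes), 0 in PD-L1low versus control (2.1%) and 4 of 12 in PD-L1high versus PD-L1low (8.52%). Limma-voom called 3 in PD-L1high versus control (Fosb, Ier2 and Nr4a1, all lower) and 1 in PD-L1high versus PD-L1low (Fosb, lower), and DESeq2 called only the last of these. Counts over all genes by these tools are in the closing section. The median log2 fold change of the list was -0.53 in PD-L1high versus control and -0.34 in PD-L1high versus PD-L1low. Its sum was 792 CPM in control replicate 1, against 359, 496 and 319 in control replicates 2 to 4. In PD-L1high replicates 1 to 4 it was 400, 427, 310 and 349 CPM. Whether the CRE bears on any of these values was not tested. Of the 12 genes, 2 were above 0 in PD-L1high versus control and 4 in PD-L1high versus PD-L1low. Crem, a CRE-binding factor, was among them in each, at 0.45 and 0.48 (edgeR adjusted p = 0.228 and 0.298). Nr4a1 had the largest negative difference of PD-L1high from control cells, at -1.24 (edgeR adjusted p = 0.188).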

How the data were processed

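RNA of sorted beta cells was made by the authors into stranded, random-primed libraries depleted of ribosomal RNA, aligned by STAR 2.5.2b (GRCm38.p6, a GENCODE annotation) and quantified with RSEM, whose version is not given in the sources used here. The deposited expected counts per gene are estimates that are not normalized, and the deposited TPM values were scaled by the authors for length and depth. Expected counts were rounded to whole numbers, a change of no more than 0.000388% in any total. Genes were kept by filterByExpr (count minimum 10) and tested with edgeR 4.0.16 in R 4.3.3 (TMM, robust quasi-likelihood fit) on condition and replicate number over all 11 libraries, with Benjamini-Hochberg adjustment over 16252 genes and a threshold of 0.05. The replicate number stands in for a batch term that the methods name without defining. Alternatives used DESeq2 1.42.0, limma 3.58.1, other normalizations and filters, no replicate term, and each library left out. CPM are TMM-scaled. Gene symbols and positions came from GENCODE M21. Members and gene lists were chosen with earlier results of these data known. The genes named are all granins, the 3 most alike for each, and from every other list those with adjusted p under 0.05 or, where there were none, up to 2 with the smallest p. The methods call each n an independent biological sample and the labels name no animals. P values of group differences thus measure the spread left between these libraries after the replicate term. Same-group libraries differed by more than sampling noise.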

Additional observations from a re-analysis of the deposited data

How the results depend on the processing

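Of the granins, Chgb was the one whose call in PD-L1high versus control depended on the processing: 1 granin was called with no filter on low counts and with DESeq2, and 0 to 1 when each library was left out, the 1 being without control replicate 2. Its log2 fold change was 0.29 to 0.59 over all alternatives. Granins called in the other comparisons stayed at 0 under every alternative run. The replicate term called 3 granins with no filter, 0 to 2 with a library left out (1 without control replicate 1 and 2 without PD-L1high replicate 1) and 1 without both replicate 1 libraries, an alternative chosen after seeing the data. No share over all genes is given for these alternatives (0.4% in the main fit), so these counts are not read as particular to the granins. Counts of all genes called were 161 in PD-L1high versus control, 13 in PD-L1low versus control and 119 in PD-L1high versus PD-L1low. In this order they were 328, 91 and 354 with no filter, 249, 47 and 202 with DESeq2, and 245, 27 and 180 with limma-voom. PD-L1low versus control had 20 with library size alone, 33 with the compared groups alone and 43 without both replicate 1 libraries. Leaving out 1 library gave 110 to 269, 8 to 43 and 64 to 143. Without the replicate block, Chgb differed by 0.42 in PD-L1high versus control (edgeR adjusted p = 0.699). Same-numbered libraries correlated at -0.329 to 0.408 (median 0.124) in their deviations from group means, differently numbered ones at a median of -0.0357, and 7 of 11 libraries correlated best with their own number, a hint of pairing that not every pair bore out. No called direction reversed, while uncalled differences near 0 changed sign under some alternatives. The cause of these changes was not tested. Vgf had the fewest counts of the granins, 154 to 1067 a library, and the widest spread, with a biological coefficient of variation of 0.346.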
